A study of Mus musculus with 12 samples.

Results

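The 10 genes described here encode the surfactant proteins and proteins of the alveolar type 2 (AT2) cell that makes them. They were taken by gene symbol from a table of 55414 genes: Sftpa1, Sftpb, Sftpc, Sftpd, Abca3, Lamp3, Lpcat1, Napsa, Slc34a2 and Etv5. Each symbol had a single entry. Their levels were compared between whole lungs of 6 IL-10 B-KO mice (KO from here on) and 6 of the IL-10 B-WT kind (WT), all exposed to lipopolysaccharide (LPS) and taken on day 4. IL-10 B-KO mice carry a floxed Il10 gene that mb1-Cre deletes in B cells, and the WT mice are controls. Both are on a C57BL/6J background. Their age, and whether the controls carried the floxed allele or Cre, are not given in the sources used here. LPS, a component of the bacterial cell wall, was instilled to cause acute lung injury. Every lung had received LPS, so the comparison shows a difference between genotypes after LPS and not a response to LPS. The methods describe taking lavage fluid before excision of lungs, and whether these 12 lungs were lavaged is not given in the sources used here.

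Surfactant is a film of phospholipid and protein that lowers surface tension at the air-liquid interface of the alveolus. AT2 cells assemble it in lamellar bodies and secrete it, and alveolar macrophages and AT2 cells take it up again. SP-B and SP-C are small hydrophobic proteins that spread the lipid film, whereas SP-A and SP-D are collectins, soluble lectins that bind microbes, LPS and other glycans. AT2 cells are also progenitors that renew the alveolar epithelium after injury.

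The authors deposited the expression values as TPM, which divide the reads of a gene by its length and scale each library to a common total. TPM keep no depth, so the number of reads behind a value is unknown and the precision rests on the spread between lungs. Since TPM are scaled by gene length, levels can be set side by side between genes. Differences between genotypes were tested with limma on log2(TPM + 1) in the 15148 genes that reached 1 TPM in 6 or more libraries, all 10 genes among them. Log2 fold changes on this scale are KO minus WT and are too small for genes with few TPM. A gene was called when its Benjamini-Hochberg adjusted p was at most 0.05 and its absolute log2 fold change at least 1. An exact permutation test (two-sided) was added for single values, where 6 lungs against 6 allow 924 arrangements and no p below 0.00216.

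The deleted gene was too low in whole lung to check the labels, reaching 1 TPM in 0 libraries. Il10 was listed between 0 and 0.88 TPM in WT lungs (median 0.29) and between 0 and 0.58 TPM in KO lungs (median 0.235), with overlapping groups (exact permutation test, p = 0.745). Cells other than B cells also transcribe Il10.

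WT replicate 5 stood apart in library measures. It had 30.48% of its TPM in mitochondrially encoded genes, against 4.63% to 15.8% in the other 11 libraries, and the fewest genes above 0, 21380. It was the lowest of all 12 lungs for each of the 10 genes, at 11.9% (Sftpd) to 44.3% (Etv5) of the median of the other WT lungs. WT replicate 1 was the highest WT lung for 9 of the 10 genes, Sftpc being the exception, while its mitochondrial share (5.66%) was ordinary. It was picked out by the values of the 10 genes themselves, so that what is seen without it depends on that choice and is a description only. The part of RNA quality in the values of replicate 5 was not tested.

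None of the 10 genes was called between the genotypes (limma, 0 of 10), against 75 of 15148 genes tested (0.495%), 4 of them higher and 71 lower in KO lungs. At an unadjusted limma p up to 0.05, 6 of the 10 were higher in KO lungs (Sftpa1, Sftpb, Sftpd, Lamp3, Napsa and Slc34a2) and 0 were lower. At that threshold 6.83% of all genes tested were higher, and 865 of 15148 were lower. The mean log2 level was higher in KO lungs for 10 of 10 genes, and for 63.2% of all genes tested. The median log2 fold change of the 10 genes was 0.85, beside 0.10 over all genes tested. Of the 10, 0 had groups that did not overlap, against 0.0924% of all genes tested with every KO lung above every WT lung. In whole lung, more AT2 cells and more of these transcripts per AT2 cell cannot be told apart.

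These counts moved with single libraries. Without WT replicate 5, 3 of the 10 genes (Sftpa1, Sftpd and Lamp3) had an unadjusted limma p up to 0.05, and the median log2 fold change was 0.53. Without WT replicate 1, 8 had such a p, 1 gene (Sftpd) was called, and the median log2 fold change was 1.03. Over all genes, 576 were then called and 17.9% were higher at that p, against 3.19% without replicate 5. The log2 fold changes without replicate 1 were 1.34 for Sftpa1 (limma adjusted p = 0.0637), 1.60 for Lamp3 (0.0614), 1.28 for Napsa (0.0900), 1.19 for Slc34a2 (0.103) and 0.87 for Sftpb (0.129).

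**Figure D1:**
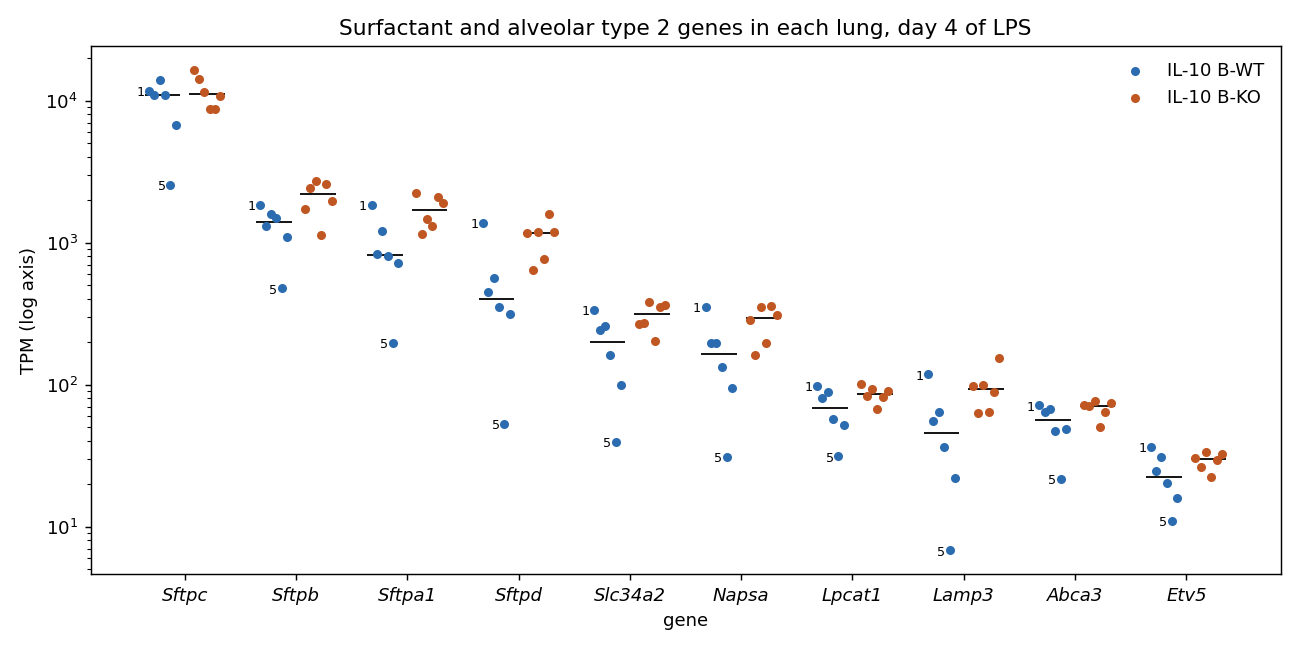
TPM on a log axis of the 10 genes in each of 12 lungs, 6 per genotype, in order of mean level. Points are lungs, bars are medians, and the numbers 1 and 5 mark those WT replicates; replicate 5 is the lowest point for every gene, and the groups overlap for every gene.

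The surfactant protein genes were the most abundant of the 10, with Sftpc far above the rest. Sftpc (ENSMUSG00000022097; GRCm38 chromosome 14, 70520949 to 70524081, minus strand) encodes SP-C, which is made by AT2 cells alone among lung cells. Its TPM were 2548 at the lowest, 10949 at the median and 13901 at the highest in WT lungs, and 8697, 11063 and 16424 in KO lungs. The medians were nearly the same, and WT replicates 5 and 6 were the lowest lungs. Means were 9470.0 ± 4101 TPM (SD, n = 6) and 11714 ± 3079 TPM (SD, n = 6), a log2 fold change of 0.45 (adjusted p = 0.616 in limma, standard error 0.39). The exact permutation p was 0.327. Without replicate 5 the WT mean was 10854 ± 2580 TPM (SD, n = 5) and the log2 fold change 0.11. The log2 fold change was 0.39 without WT replicate 6 and 0.34 without KO replicate 1, the highest lung. Sftpc ranked between place 5 and place 14 among all genes of a library, apart from WT replicate 5, where it was at place 30.

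Sftpb (ENSMUSG00000056370; chromosome 6, 72304610 to 72314371, plus strand) encodes SP-B, without which lamellar bodies do not form and breathing fails at birth. WT lungs held 477 TPM at the lowest, 1396 at the median and 1839.97 at the highest, and KO lungs 1137, 2189 and 2724. Of the KO lungs, 4 were above every WT lung, while replicate 4 lay below the WT median. The log2 fold change was 0.74 (adjusted p = 0.378 in limma, standard error 0.33; exact permutation p = 0.0390), and 0.48 without WT replicate 5.

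The collectin genes differed more between the group medians than Sftpb and Sftpc. Sftpa1 (ENSMUSG00000021789; chromosome 14, 41131782 to 41136452, plus strand), which encodes SP-A, was at 196 TPM at the lowest, 817 at the median and 1849.95 at the highest in WT lungs. In KO lungs these were 1145, 1684 and 2248 TPM. All 6 KO lungs were above the WT median, and 4 WT lungs were below every KO lung. The log2 fold change was 1.09 (adjusted p = 0.343 in limma, standard error 0.43; exact permutation p = 0.0216), and 0.70 without WT replicate 5.

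Sftpd (ENSMUSG00000021795; chromosome 14, 41172214 to 41185149, minus strand) encodes SP-D and had the largest log2 fold change of the 10. WT lungs were at 53.1 TPM at the lowest, 401 at the median and 1372 at the highest, and KO lungs at 644, 1176 and 1580.35 TPM. WT replicate 1 was the only WT lung above any KO lung: the other 5 WT lungs, none above 559.9 TPM, were below every KO lung. That lung was picked out by the values of the 10 genes, so what is seen without it is a description only. Sftpd was the 1 gene of the 10 without overlap when it was left out, and the share of all genes tested is not given here. Means were 517 ± 452 TPM (SD, n = 6) and 1087 ± 336 TPM (SD, n = 6), a log2 fold change of 1.54 (adjusted p = 0.328 in limma, standard error 0.58; exact permutation p = 0.0238). It was 1.93 (limma adjusted p = 0.0475) without replicate 1 and 1.00 (limma adjusted p = 0.345) without replicate 5.

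Sftpa1 and Sftpd lie on chromosome 14 with 35761 bases between them, on opposite strands. Mbl1, another collectin gene, lies in that gap and was at 0.847 ± 0.595 TPM (SD, n = 6) in WT lungs and 0.875 ± 0.268 TPM (SD, n = 6) in KO lungs, too low to enter the fit. Mat1a, the neighbour of Sftpa1 on the other side and a methionine adenosyltransferase, was at 4.01 ± 2.96 TPM and 7.11 ± 1.95 TPM (SD, n = 6 each; log2 fold change 0.84, limma adjusted p = 0.334). These neighbours were named for their position, after their values were seen.

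Summed over Sftpa1, Sftpb, Sftpc and Sftpd, the surfactant proteins took 0.329% to 1.74% of the library TPM in WT lungs and 1.20% to 2.17% in KO lungs. The means were 1.23% ± 0.534 (SD, n = 6) and 1.67% ± 0.330 (SD, n = 6). The log2 difference of 0.60 was within the spread between lungs (exact permutation test, p = 0.123). Without WT replicate 5 it was 0.26 (exact permutation p = 0.247), and without KO replicate 4, the lowest of its group, it was 0.69 (exact permutation p = 0.0433). KO replicate 4 was picked out by this share itself. A larger difference without it follows from that choice and is a description only. Sftpc made up 69.8% to 81.0% of the sum in WT lungs and 58.5% to 77.2% in KO lungs.

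**Figure D2:**
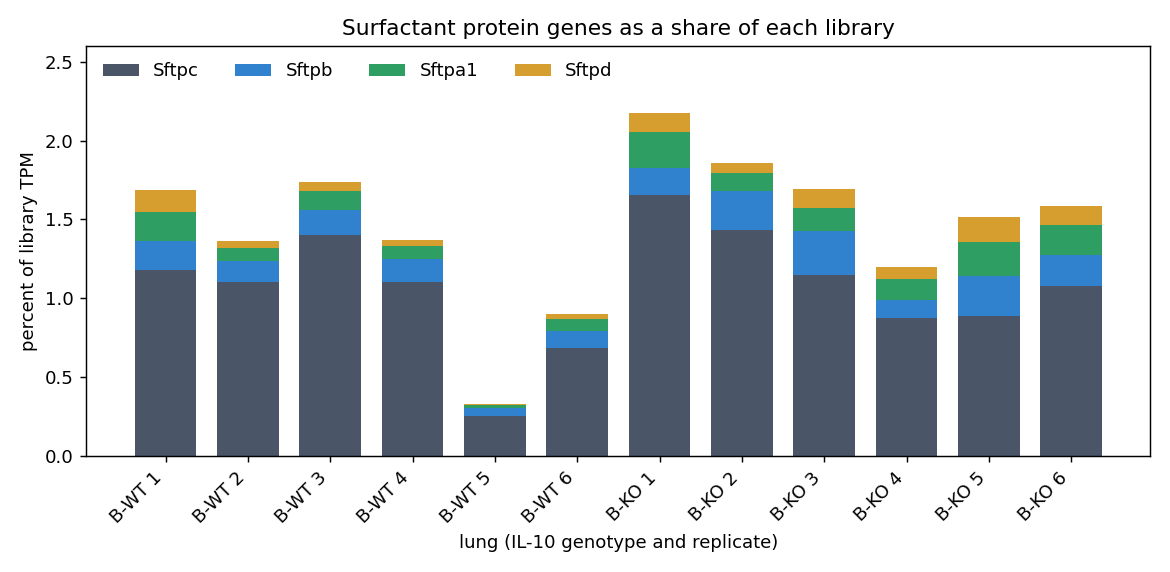
Percent of library TPM taken by Sftpc, Sftpb, Sftpa1 and Sftpd, stacked, in each of 12 lungs. The bars of WT replicate 5 (0.329%) and replicate 6 (0.898%) are the shortest, and the other 10 lungs lie between 1.20% and 2.17%.

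Lamp3 and Napsa belong to the secretory route of surfactant. Lamp3 (ENSMUSG00000041247; chromosome 16, 19653378 to 19706375, minus strand), a membrane protein of lamellar bodies that mature dendritic cells also express, was at 6.81 TPM at the lowest, 45.8 at the median and 118.1 at the highest in WT lungs. In KO lungs it was at 63.4, 93.5 and 153.7 TPM. All KO lungs were above the WT median, and only KO replicate 6 was above WT replicate 1. The log2 fold change was 1.27 (adjusted p = 0.353 in limma, standard error 0.52; exact permutation p = 0.0541), and 0.82 without WT replicate 5. Napsa (ENSMUSG00000002204; chromosome 7, 44572380 to 44586862, plus strand) encodes napsin A, an aspartic protease that trims the SP-B precursor. Its TPM were 31.1, 164 and 351 (lowest, median and highest) in WT lungs and 161, 296 and 359 in KO lungs. The ranges overlapped almost to the top, and the log2 fold change was 1.00 (adjusted p = 0.397 in limma, standard error 0.46). Without WT replicate 5 it was 0.59, and the unadjusted limma p of Napsa went from 0.0495 to 0.0934.

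Slc34a2 (ENSMUSG00000029188; chromosome 5, 53038081 to 53071664, plus strand) encodes the sodium-phosphate cotransporter that clears phosphate set free from surfactant phospholipid in the alveolus. It was at 39.4, 201 and 336 TPM (lowest, median and highest) in WT lungs and 202, 312 and 384 TPM in KO lungs. Of the KO lungs, 3 were above every WT lung. The log2 fold change was 0.96 (adjusted p = 0.381 in limma, standard error 0.43), and 0.57 without WT replicate 5.

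The genes for lipid handling and the transcription factor differed least, together with Sftpc. Abca3 (ENSMUSG00000024130; chromosome 17, 24351950 to 24410201, plus strand) encodes the transporter that loads phospholipid into lamellar bodies, and was at 21.7, 56.3 and 71.4 TPM (lowest, median and highest) in WT lungs against 50.4, 71.2 and 76.3 TPM in KO lungs. Lpcat1 (ENSMUSG00000021608; chromosome 13, 73467197 to 73516422, plus strand), an acyltransferase that makes the saturated phosphatidylcholine of surfactant, was at 31.3, 68.8 and 97.95 TPM and at 67.55, 86.1 and 100.6 TPM. Etv5 (ENSMUSG00000013089; chromosome 16, 22381309 to 22439719, minus strand), an ETS factor that maintains AT2 identity downstream of FGF receptors, was at 10.95, 22.5 and 36.5 TPM and at 22.5, 29.9 and 33.75 TPM. Without WT replicate 5 the groups overlapped over most of their range for these 3 genes. Log2 fold changes were 0.42 (Abca3), 0.42 (Lpcat1) and 0.40 (Etv5), with standard errors of 0.25 each and limma adjusted p-values of 0.486, 0.476 and 0.497. Without replicate 5 they were 0.19, 0.22 and 0.22.

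The order of levels among the 10 genes was largely shared by the lungs. Sftpc was first in 12 of 12 lungs, Sftpd was at place 4 in 12 of 12, and Sftpb was above Sftpa1 in 9 of 12. Slc34a2 was above Napsa in 9 of 12 lungs. Lamp3 was above Abca3 in 1 of 6 WT lungs and 5 of 6 KO lungs, with a ratio of their TPM from 0.314 to 2.07. Etv5 was below Abca3 in 12 of 12 lungs. Between lungs, Sftpd and Lamp3 varied most among WT mice, with the highest lung 25.8 times and 17.3 times the lowest, and Lpcat1 least, at 3.13 times. These ratios rest on WT replicate 5, without which they were 4.35, 5.36 and 1.90, with Lamp3 the largest and Abca3 (1.51) the smallest of the 10. Among KO mice, the ratio was between 1.49 (Lpcat1) and 2.45 (Sftpd). The SD of log2(TPM + 1) was smaller in KO lungs for 10 of 10 genes, and WT replicate 5 is part of that difference. Without that lung, the SD in TPM was smaller in WT lungs (n = 5) than in KO lungs for Sftpb (284 and 600) and Sftpc (2580 and 3079). It was larger in WT lungs for the other members. No count on the log2 scale without that lung is given here.

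The other genes were also set against Sftpc in the same lung, which removes what scales all values of a library alike. These ratios were chosen after the values were seen and are a description only. Per 100 TPM of Sftpc, Sftpd was at 2.08 TPM at the lowest, 4.05 at the median and 11.7 at the highest in WT lungs, and at 4.52, 9.58 and 18.0 TPM in KO lungs. Without WT replicate 1, whose ratio was 11.7, the highest WT lung was at 4.66, and 5 of 6 KO lungs were above it. Replicate 5, with the lowest level of every gene, also had the lowest Sftpd ratio.

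Sftpa1 had medians of 8.17 and 14.4 TPM per 100 TPM of Sftpc (WT and KO), Lamp3 of 0.396 and 0.802, Napsa of 1.41 and 2.56, and Slc34a2 of 1.70 and 2.84. The medians differed less for Sftpb (14.7 and 17.6), Abca3 (0.598 and 0.624), Lpcat1 (0.748 and 0.798) and Etv5 (0.230 and 0.277). For each of these genes WT replicate 5 had the highest ratio of its group. On log2 TPM without a pseudocount, division by Sftpc lowers the difference of each gene by the same amount. The order of the genes was thus set by their fold changes, and the ratios add no evidence for it.

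As a wider reference, 8 pan-epithelial genes (Epcam, Cdh1, Krt8, Krt18, Cldn3, Cldn7, Esrp1 and Grhl2) were examined. They had a median log2 fold change of 0.45, with 0 of 8 called and 2 of 8 (Krt8 and Krt18) higher at an unadjusted limma p up to 0.05. Without WT replicate 1, 2 were called and 4 had such a p, and without WT replicate 5 the counts were 0 and 1 and the median 0.26. The mean log2(TPM + 1) of the 10 genes relative to these 8 differed between genotypes by 0.99 (Sftpd) to -0.15 (Etv5), with Sftpc, Abca3, Lpcat1 and Etv5 below 0. This shifts the fold change of each of the 10 by the same amount. Krt8 and Krt18, keratins of simple epithelia, had log2 fold changes of 1.18 and 1.20 (limma adjusted p = 0.304 and 0.331). Epcam, an adhesion molecule of all lung epithelium, was at 32.8 ± 8.55 and 46.0 ± 11.6 TPM (SD, n = 6 each; log2 fold change 0.48, limma adjusted p = 0.420).

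Over the 12 lungs, Pearson's r of log2(TPM + 1) between pairs of the 10 genes was 0.78 (Sftpc and Sftpd) to 0.99 (Sftpa1 and Sftpd), with 31 of 45 pairs at 0.9 or more. Without WT replicate 5, it was 0.26 to 0.96 for the same pairs, with 11 of 45 at 0.9 or more, so that much of the shared pattern of Sftpc rests on that lung. Outside the 10 genes, those most like Sftpc over the 12 lungs were Lgi3 (r = 0.98, Spearman's rho 0.92), Irx3 (0.98, rho 0.96), Foxa2 (0.97, rho 0.94), Yipf2 (0.96, rho 0.95) and Exosc7 (0.96, rho 0.77). With the pair of lungs farthest from the median of Sftpc left out, r was 0.83 to 0.96 for these 5. Those most like Lamp3 were Cxcl15 (r = 0.98, rho 0.99), Egfl6 (0.98, rho 0.95), Dram1 (0.98, rho 0.94), Mlc1 (0.98, rho 0.94) and Sdc1 (0.97, rho 0.94), with r of 0.91 to 0.94 without the 2 lungs farthest from its median. Deviations from the genotype means gave r of 0.96 to 0.98 for all 10 of these genes. Lgi3, Cxcl15 and Egfl6 are known AT2 markers and Foxa2 is an AT2 transcription factor, and all are in lists given below. The likeness is that of lungs, which share a total, and the genes were picked from 15148 as the highest.

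Other AT2 markers differed less than the 10 genes in their medians. The transcription factors of AT2 cells had 0 of 10 called (limma), 1 of 10 higher at an unadjusted limma p up to 0.05, and a median log2 fold change of 0.27 (range -0.26 to 0.63, 2 of 10 lower). The median was 0.10 without WT replicate 5, and 2 genes were higher at that p without WT replicate 1. The one was Cebpa, a factor of AT2 maturation and of myeloid cells, at 39.5 ± 10.7 and 61.5 ± 17.7 TPM (SD, n = 6 each; log2 fold change 0.63, limma adjusted p = 0.328). Nkx2-1, the lineage factor of lung epithelium, was at 70.9 ± 21.9 and 75.9 ± 22.7 TPM (log2 fold change 0.12), Foxa2 at 19.5 ± 6.54 and 23.8 ± 5.26 TPM, and Stat3 at 72.5 ± 43.3 and 83.1 ± 24.7 TPM. Nfib was at 19.0 ± 1.73 and 15.8 ± 2.32 TPM (log2 fold change -0.26).

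Of 20 further AT2 markers, 19 entered the fit, 0 were called and 4 were higher at an unadjusted limma p up to 0.05, with a median log2 fold change of 0.45 (range -0.96 to 1.46, 3 lower). Without WT replicate 1, 2 were called, and without WT replicate 5 the median was 0.09 and 2 were higher at that p. Cxcl15, the lung chemokine lungkine, was at 262 ± 178 TPM and 489 ± 143 TPM (SD, n = 6 each; log2 fold change 1.14, limma adjusted p = 0.330). Egfl6, a secreted matrix protein, was at 13.3 ± 9.03 and 22.8 ± 5.35 TPM (log2 fold change 0.97). Ctsh, the cathepsin that processes SP-B and SP-C precursors, was at 247 ± 181 and 580.2 ± 234 TPM (log2 fold change 1.46, limma adjusted p = 0.263). The most abundant were Cd74, the invariant chain of MHC class II, which B cells and macrophages share, at 3010.2 ± 1491 and 4066 ± 1494 TPM, and Wfdc2 at 1105 ± 441 and 1243 ± 552 TPM. Dlk1 was listed at 0 in at least 1 library.

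Genes for surfactant protein processing and lamellar body traffic had 0 of 14 called (limma), with 1 higher (Ctsh) and 1 lower (Adgrf5) at an unadjusted limma p up to 0.05 and a median log2 fold change of 0.27 (range -0.54 to 1.46, 12 of 14 higher). Leaving out WT replicate 1 gave 1 call and 5 higher genes at that p, and the median was 0.16 without WT replicate 5. Adgrf5, a receptor that limits the surfactant pool and is also expressed by endothelium, was at 289 ± 71.7 and 202 ± 73.6 TPM (SD, n = 6 each; log2 fold change -0.54). Hps6, a subunit of a complex for lysosome-related organelles, was at 5.06 ± 1.52 and 6.77 ± 0.909 TPM.

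Phospholipid synthesis had 0 of 18 called, with 1 higher and 1 lower at that p and a median log2 fold change of 0.06 (range -0.55 to 0.68, 10 of 18 higher), close to that of all genes. The median was -0.11 without WT replicate 5, and 3 genes were higher at that p without WT replicate 1. Elovl1, a fatty acid elongase, was at 267 ± 124 and 399 ± 77.9 TPM (SD, n = 6 each; log2 fold change 0.68, limma adjusted p = 0.353), Lpcat3 at 41.9 ± 17.3 and 58.4 ± 13.6 TPM, and Insig1, which restrains sterol synthesis, at 20.6 ± 6.60 and 13.9 ± 4.69 TPM (log2 fold change -0.55). Prdx6, which has the phospholipase activity used in surfactant turnover, was the most abundant, at 578 ± 176 and 547 ± 96.0 TPM.

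Surfactant clearance, which alveolar macrophages carry out under GM-CSF, had 0 of 10 called (limma) and 3 of 10 higher at an unadjusted limma p up to 0.05, with a median log2 fold change of 0.83. This count was 1 without WT replicate 5 and 8 without WT replicate 1. In mean log2 level 8 were higher and 2 lower, the lower being the lipid factors Nr1h3 (log2 fold change -0.29) and Pparg (-0.21). Csf2ra, a chain of the GM-CSF receptor, was at 127 ± 131 and 246 ± 96.5 TPM (SD, n = 6 each; log2 fold change 1.50, limma adjusted p = 0.360). Spi1, the macrophage and neutrophil factor PU.1, was at 72.7 ± 68.1 and 143 ± 64.8 TPM, and Pla2g15, a lysosomal phospholipase, at 16.4 ± 6.77 and 26.8 ± 7.45 TPM (log2 fold change 0.72, limma adjusted p = 0.328). Csf2ra and Spi1 are expressed by neutrophils and monocytes as well.

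FGF signalling upstream of Etv5 had 0 of 12 called (limma), 0 higher and 3 lower at an unadjusted limma p up to 0.05, and a median log2 fold change of -0.11 (3 of 12 higher in mean, 9 lower). Leaving out a library put the median between -0.27 (WT replicate 5) and -0.01 (WT replicate 1, when 2 genes were higher at that p). Of its feedback inhibitors, Spry1 was at 35.0 ± 6.18 and 24.0 ± 4.88 TPM (SD, n = 6 each; log2 fold change -0.53, limma adjusted p = 0.292) and Spred2 at 14.5 ± 2.84 and 10.0 ± 1.56 TPM (log2 fold change -0.48, limma adjusted p = 0.290), while Spry2 (-0.00), Spry4 (-0.01) and Spred1 (0.11) were near 0. The ligand Fgf1 was at 53.2 ± 17.7 and 31.1 ± 17.1 TPM. Dusp6, a phosphatase induced by FGF and many other signals, was the most abundant, at 64.7 ± 23.8 and 107 ± 51.7 TPM, followed by Fgfr3 at 65.4 ± 30.6 and 48.3 ± 25.2 TPM. Dusp6 and Etv4, the ETS relative of Etv5, were the highest in log2 fold change, at 0.64 and 0.62.

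Alveolar type 1 genes, of the flat gas-exchange cells that AT2 cells renew, had 0 of 15 called (limma), 0 higher and 1 lower at an unadjusted limma p up to 0.05, and a median log2 fold change of -0.14, which was -0.38 without WT replicate 5 and 0.03 without WT replicate 3. Ager, their most abundant marker, was at 1134 ± 465 and 994 ± 308 TPM (SD, n = 6 each), Cav1 at 798 ± 111 and 653 ± 205 TPM, Emp2 at 471 ± 104 and 281 ± 93.9 TPM (log2 fold change -0.77, limma adjusted p = 0.190) and Rtkn2 at 36.3 ± 15.2 and 23.5 ± 13.7 TPM. Of the 15 genes 5 were higher in mean log2 level: Pdpn (log2 fold change 0.71), Aqp5 (0.48), Gprc5a (0.37), Cldn18 (0.21) and Spock2 (0.08). Without WT replicate 5, 5 of the 15 were lower at that p. The summed list was at 2295 to 5782 TPM in WT lungs and 3043 to 4384 TPM in KO lungs.

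Genes of the transitional state between AT2 and type 1 cells had 0 of 12 called (limma), 8 of 12 higher at an unadjusted limma p up to 0.05 and a median log2 fold change of 0.92. The count was 4 without WT replicate 4 or 5 or KO replicate 3 or 5, and 3 genes were called without WT replicate 1. Krt8, also counted among the pan-epithelial genes, was at 122 ± 85.6 and 257 ± 128 TPM (SD, n = 6 each; log2 fold change 1.18, limma adjusted p = 0.304), the EGF receptor ligand Areg at 5.27 ± 3.42 and 15.1 ± 8.32 TPM (log2 fold change 1.36, limma adjusted p = 0.195) and Lgals3 at 205 ± 194 and 467 ± 196 TPM (log2 fold change 1.51). Lcn2 was the most abundant, at 908 ± 1399.9 and 2941 ± 1952 TPM, and Clu was at 320.0 ± 148 and 390.0 ± 69.5 TPM. Lgals3 and Lcn2 are also made by macrophages and neutrophils.

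Airway epithelium was uneven between lungs. Club cell genes had 0 of 12 called (limma), 1 higher and 0 lower at an unadjusted limma p up to 0.05 and a median log2 fold change of -0.46, and ciliated cell genes had 0 of 10 called, 0 in either direction at that p and a median of -0.51. With single libraries left out the club median was from -0.89 (without WT replicate 1) to 0.03 (without KO replicate 6), and -0.05 without WT replicate 4. Without KO replicate 2, 4 genes of each of these lists were lower at that p, as were 4 club genes and 1 ciliated gene without WT replicate 1. The club list summed to 26258 to 110441 TPM in WT lungs (lowest in replicate 1, highest in replicate 4) and to 11605 to 116069 TPM in KO lungs (lowest in replicate 5, highest in replicate 2). Scgb1a1, the club cell secretory protein, was at 50966 ± 27064 and 29223 ± 31659 TPM (SD, n = 6 each), Cbr2 at 3842 ± 2134 and 2312 ± 2711 TPM, and Scgb3a2 at 3658 ± 2856 and 2703 ± 3288 TPM. Hp was at 1024 ± 447 and 1651 ± 504 TPM (log2 fold change 0.77), and Reg3g (0.91) and Muc5b (0.41) were the other club genes higher in mean, 3 of 12. Of the ciliated genes 9 were lower and 1 higher in mean log2 level, the one being the lineage factor Foxj1 (54.6 ± 13.7 and 62.7 ± 30.2 TPM, SD, n = 6 each, log2 fold change 0.09). Tppp3 was at 376 ± 151 and 237 ± 149.6 TPM, Dynlrb2 at 159.9 ± 61.0 and 119 ± 78.5 TPM, and Rsph1 at 49.5 ± 17.0 and 36.5 ± 21.6 TPM. The ciliated list summed to 472 to 1306 TPM in WT lungs and 267 to 1203 TPM in KO lungs.

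Markers of inflammatory cells followed the 10 genes unevenly across lungs. Over 12 lungs, Spearman's rho between the summed TPM of a list and the mean log2 level of the 10 genes was 0.86 for neutrophil, 0.86 for monocyte, 0.39 for alveolar macrophage, 0.28 for T cell, -0.62 for B and plasma cell and -0.81 for endothelial genes. Within the 6 WT and the 6 KO lungs it was 0.83 and 0.60 for neutrophil, 0.94 and 0.77 for monocyte, 0.14 and 0.66 for alveolar macrophage, 0.71 and -0.26 for T cell, -0.03 and -0.43 for B and plasma cell, and -0.77 and -0.71 for endothelial genes. Neutrophil genes had 0 of 10 called (limma) and 10 of 10 higher at an unadjusted limma p up to 0.05, with a median log2 fold change of 1.72. Their sum was at 290.05 TPM at the lowest (replicate 5), 756 at the median and 2590 at the highest (replicate 1) in WT lungs, and at 1059.98 (replicate 2), 3319 and 7776 TPM (replicate 5) in KO lungs. The lowest and the highest WT lungs were thus the same as for 9 of the surfactant and AT2 genes. Among KO lungs, replicate 2 was the lowest for 4 of the surfactant and AT2 genes and replicate 4 for 6. Replicate 5 was the highest for 2, replicate 3 for 4, replicate 1 for 3 and replicate 6 for 1. Of the 10 neutrophil genes 7 were called higher without WT replicate 1, and 7 were higher at that p, with 0 called, without WT replicate 2, 5 or 6 or KO replicate 5 or 6. S100a9, the most abundant, was at 504 ± 361 and 1877 ± 1346 TPM (SD, n = 6 each; log2 fold change 1.87, limma adjusted p = 0.214), S100a8 at 300.5 ± 293 and 1111 ± 811 TPM, Retnlg at 58.8 ± 37.4 and 313 ± 274 TPM (log2 fold change 2.09, limma adjusted p = 0.187) and Mmp8 at 7.21 ± 7.69 and 36.7 ± 31.5 TPM.

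Monocyte and interstitial macrophage genes had 0 of 10 called (limma) and 9 of 10 higher at an unadjusted limma p up to 0.05, with a median log2 fold change of 1.70. Without WT replicate 1, 3 were called higher, and without WT replicate 5, 6 were higher at that p. They summed to 178 TPM (replicate 5), 542 and 2543 TPM (replicate 1) in WT lungs and to 437 (replicate 2), 2229 and 3455 TPM (replicate 5) in KO lungs. Ly6c2, the most abundant, was at 259 ± 378 and 679.9 ± 419.5 TPM (SD, n = 6 each), C1qb at 172 ± 141 and 469 ± 219 TPM (log2 fold change 1.65, limma adjusted p = 0.304), C1qc at 127 ± 99.7 and 327 ± 158 TPM and Ms4a7 at 14.6 ± 14.3 and 42.5 ± 18.3 TPM. No gene of the neutrophil and monocyte lists was at 0 in any library.

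Alveolar macrophage genes had 0 of 10 called (limma), 2 higher and 0 lower at that p (0 higher without WT replicate 5 or KO replicate 3 or 5, and 1 called without WT replicate 1), and a median log2 fold change of 0.33 (0.21 without WT replicate 5 and 0.19 without KO replicate 3), with sums of 602 to 1019 TPM in WT lungs and 685 to 1837 TPM in KO lungs. Chil3 was the most abundant, at 209.5 ± 163 and 677 ± 526 TPM (SD, n = 6 each), followed by Car4, which capillary endothelium also expresses, at 415 ± 185 and 242 ± 142 TPM. Marco was at 15.4 ± 24.1 and 27.4 ± 18.7 TPM, and Ear1, which shares sequence with other Ear genes, at 15.2 ± 8.26 and 31.9 ± 20.8 TPM. The part of inflammatory cells in the differences of the 10 genes was not tested.

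**Figure D3:**
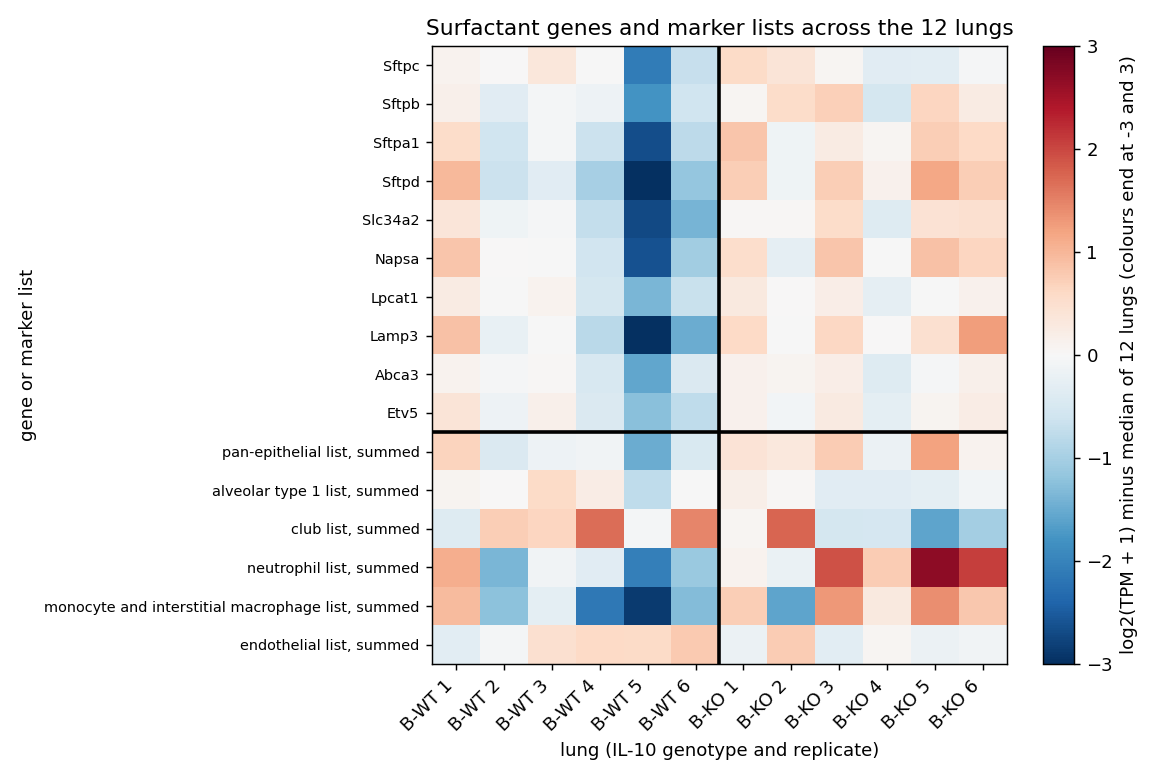
Log2(TPM + 1) of the 10 genes and of the summed TPM of 6 marker lists (vertical axis) in each of 12 lungs (horizontal axis), minus the median of the 12 lungs of that gene or list. WT replicate 5 is the lowest lung for all 10 genes and for the pan-epithelial, alveolar type 1, neutrophil and monocyte lists. It is not the lowest for the club and endothelial lists. The club list is highest in KO replicate 2 (116069 TPM) and lowest in KO replicate 5 (11605 TPM).

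B and plasma cell genes were the list with most calls, 5 of 10 called lower (limma) and 10 of 10 lower at an unadjusted limma p up to 0.05. The genes that fell were Igha (log2 fold change -9.21, limma adjusted p = 3.97e-04), Igkc (-8.55, adjusted p = 0.0125), Jchain (-7.60, adjusted p = 6.62e-04), Cd79a (-4.16, adjusted p = 0.0222) and Mzb1 (-3.57, adjusted p = 0.0195). Each was lower in 6 of 6 KO lungs than in every WT lung. The share of all genes tested with every KO lung below every WT lung is not given here. The part of the mb1-Cre allele in these values, that of Cd79a included, was not tested. With a library left out 3 to 6 were called, 3 without WT replicate 5 or KO replicate 1, 3 or 5. The list, with Igkc the most abundant, summed to 1246 to 44382 TPM in WT lungs and 22.95 to 367 TPM in KO lungs, and Cd79a and Pax5 were listed at 0 in at least 1 KO library. A large share taken by these genes lowers the TPM of all others in a library. With TPM rescaled without immunoglobulin genes, 3 of the 10 surfactant and AT2 genes had an unadjusted limma p up to 0.05, with a median log2 fold change of 0.80. At that p 4.97% of all genes tested were then higher, against 6.83% as reported. The lung with the largest share, WT replicate 2 (15.1% of TPM in immunoglobulin genes), had a mean rank of 5.0 of 12 over the 10 genes, where 1 is the lowest. This is a single lung. Beyond the rescaling, the part of the immunoglobulin share in the values of the 10 genes was not tested.

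T cell genes had 0 of 8 called (limma), 0 in either direction at an unadjusted limma p up to 0.05, and a median log2 fold change of 0.11. Its sign rests on single libraries: the median was -0.25 without WT replicate 5, -0.22 without KO replicate 1, -0.10 without WT replicate 4 and 0.39 without WT replicate 2. Trbc2, a T cell receptor chain and the most abundant, was at 33.1 ± 26.7 and 31.8 ± 27.5 TPM (SD, n = 6 each), and Cd3g at 19.2 ± 13.8 and 20.7 ± 17.0 TPM. Cd4 was at 6.45 ± 7.96 and 3.005 ± 1.57 TPM, Cd3e at 12.5 ± 7.99 and 9.86 ± 6.99 TPM and Cd5 at 6.11 ± 6.26 and 3.73 ± 2.83 TPM. Endothelial genes had 0 of 12 called, 0 higher and 2 lower at that p (6 without WT replicate 1, when 1 was called, or KO replicate 2, and 0 without WT replicate 5 or 6 or KO replicate 3 or 5), and a median of -0.37 (range -1.55 to 0.31, 11 of 12 lower). Vwf was the one higher in mean log2 level (0.31), and Pecam1 (-0.14), Emcn (-0.09) and Tie1 (-0.08) were close to 0. Ramp2 was at 924 ± 399.8 and 648 ± 383 TPM, Cldn5 at 793 ± 282 and 589 ± 169 TPM, Cdh5 at 501 ± 130.2 and 378 ± 90.1 TPM, Kdr at 122 ± 41.8 and 73.9 ± 30.3 TPM and Ednrb at 65.3 ± 44.7 and 22.5 ± 20.9 TPM (log2 fold change -1.55, limma adjusted p = 0.353). Fibroblast and pericyte genes had 1 of 10 called lower, 5 lower and 0 higher at that p, and a median of -0.63. Pdgfrb, the PDGF receptor of pericytes, fell from 54.6 ± 15.0 to 20.3 ± 7.88 TPM (SD, n = 6 each; log2 fold change -1.44, limma adjusted p = 0.0456), lower in 6 of 6 KO lungs than in every WT lung. The share of all genes tested without overlap in that direction is not given here. With a library left out, 2 of the list were called lower without WT replicate 1, 1 without WT replicate 3 and 0 in the 10 other cases. Tcf21 was at 39.4 ± 11.4 and 20.7 ± 7.91 TPM, Npnt at 66.7 ± 26.1 and 35.5 ± 9.95 TPM, and Inmt, the most abundant, at 846 ± 543 and 199 ± 121 TPM. Mfap4, a microfibril protein, was at 273 ± 156 and 203 ± 109.6 TPM. The 3 collagen genes of the list were higher in mean, Col3a1 at 147 ± 156 and 319 ± 248 TPM (log2 fold change 1.01, not called, limma adjusted p = 0.534), Col1a1 at 108 ± 127 and 208 ± 168 TPM (0.87) and Col1a2 at 79.4 ± 64.4 and 132 ± 100.98 TPM (0.52).

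In the gene ontology terms of the deposited annotation, 3 of the 10 genes (Sftpd, Lpcat1 and Napsa) share surfactant homeostasis, a term with 12 genes in the table, and Abca3 and Lamp3 are the only 2 genes in it annotated to the alveolar lamellar body membrane. Sftpb, Lamp3 and Napsa share the lysosome, with 294 genes.

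RefSeq promoters on GRCm38.p6, from 250 bases before to 50 bases after a RefSeq start, were at hand for 7 of the 10 genes: Sftpa1, Sftpb, Abca3, Lamp3, Lpcat1, Slc34a2 and Etv5, the last with 2 starts. Sftpc, Sftpd and Napsa are not shown. The promoters of Sftpa1, Sftpb and Lamp3, 3 of the 5 genes with a match, are printed, with matches to short cores of factors known in AT2 cells in capitals. Both strands were searched for the NKX2-1 core CTCAAG, the FOXA core TGTTTAC, the ETS core CCGGAAG and the C/EBP core TTGCGCAA. Of all 32851 promoters in the table, 15.9% held the NKX2-1 core, 3.65% the FOXA core, 8.86% the ETS core and 0.183% the C/EBP core.
Sftpa1, chr14:41131538-41131837, plus strand: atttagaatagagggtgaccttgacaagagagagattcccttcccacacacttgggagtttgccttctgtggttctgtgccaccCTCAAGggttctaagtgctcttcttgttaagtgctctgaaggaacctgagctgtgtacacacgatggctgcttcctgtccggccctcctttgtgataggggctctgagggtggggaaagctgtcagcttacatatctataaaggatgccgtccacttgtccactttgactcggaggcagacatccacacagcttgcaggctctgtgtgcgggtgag
Sftpb, chr6:72304360-72304659, plus strand: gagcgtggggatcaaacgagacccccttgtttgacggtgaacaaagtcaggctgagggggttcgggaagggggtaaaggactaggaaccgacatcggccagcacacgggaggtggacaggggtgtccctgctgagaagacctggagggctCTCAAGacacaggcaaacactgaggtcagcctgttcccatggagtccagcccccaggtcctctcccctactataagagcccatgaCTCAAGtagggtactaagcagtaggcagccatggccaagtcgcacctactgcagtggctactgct
Lamp3, chr16:19706316-19706615, minus strand: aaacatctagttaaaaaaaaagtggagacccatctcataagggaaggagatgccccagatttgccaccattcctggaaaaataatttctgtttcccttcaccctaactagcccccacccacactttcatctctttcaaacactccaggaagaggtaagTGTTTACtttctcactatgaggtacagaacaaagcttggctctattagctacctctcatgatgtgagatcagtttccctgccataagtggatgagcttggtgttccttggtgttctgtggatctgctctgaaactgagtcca
Sftpa1 held 1 match to the NKX2-1 core, at -166 from its RefSeq start, and Sftpb held 2, at -100 and -15. Lamp3 held 1 FOXA core, at -92. Slc34a2 held the palindromic C/EBP core at -48 from a RefSeq start that lies inside the gene as given above (window chr5:53049103-53049402, plus strand), and the promoter of 1 of the 2 starts of Etv5 held a FOXA core on the opposite strand. Abca3 and Lpcat1 held none of the 4 cores in these windows. No matches overlapped. A match describes letters in the window and is not evidence of binding.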

How the data were processed

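Total RNA of 12 whole lungs was sequenced. The submitters' processing notes name fastp, HISAT and RSEM, without versions, and the build GRCm38.p5. The authors deposited TPM per gene, calculated with RSEM per the methods, as 1 column for each library, rounded to 2 decimals and not pooled. Columns were matched to samples by name, no pair of libraries was identical, and 0 value columns were left unused.

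Here, limma 3.58.1 in R 4.3.3 (lmFit, eBayes with a trend) was fitted to log2(TPM + 1) by genotype alone, for genes that reached 1 TPM in 6 or more libraries, with Benjamini-Hochberg adjustment over all of them. The fit was first tested on simulated data. Exact permutation tests were run with SciPy 1.17.1 in Python 3.11.15, with NumPy 2.4.6 and pandas 2.3.3, and figures with matplotlib 3.10.9. The labels do not say that lungs were pooled, and each library was taken as 1 mouse. Coordinates are those of GENCODE M21 on GRCm38, matched by gene ID. The members and the lists were chosen with earlier results of these data known, so no list was tested as a set. Named genes were all members and, in each list, the called genes, the 3 with the smallest p and the 2 with the highest mean TPM, with genes of the opposite direction or near 0 added later, and, for likeness, the 5 genes with the highest r. The analysis was repeated without a filter, with a pseudocount of 0.1, with only genes at a mean of 5 TPM or more, with 3 rescalings, quantile normalization, median centring, array quality weights, a replicate block and each library left out. Proteins were not analysed here.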

Additional observations from a re-analysis of the deposited data

Results flagged for a closer look

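Abca3 in IL-10 B-WT lungs had 1 lung far from the others: replicate 5 was at 21.7 TPM, and its gap to the next lung (47.3 TPM) on the log2 scale was 0.651 of the whole range of the group. This was 1 of 22 groups examined (10 genes and the summed surfactant protein share in both genotypes), where chance gives about 1 in 20.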

How the results depend on the processing

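The mean was higher in KO lungs for 10 of 10 genes under each of the 22 alternatives, and the median log2 fold change of the 10 genes was 0.53 to 1.03 over them. The number of all genes called, 75 as reported, was 6 without a filter, 28 when rescaled without immunoglobulin genes, 39 after quantile normalization, 36 after median centring and 318 with array quality weights, which gave WT replicate 5 a weight of 0.157. With those weights 81 were higher and 237 lower, against 4 and 71. Leaving out a library gave 15 (KO replicate 5) to 576 (WT replicate 1) genes, with 17 without KO replicate 1, 20 without WT replicate 4 or KO replicate 3, 23 without WT replicate 5, 33 without WT replicate 6, 43 without KO replicate 6 and 44 without WT replicate 3. Members called were 0 except for Sftpd, so that 1 was called with array quality weights (log2 fold change 1.23, limma adjusted p = 0.0492) and without WT replicate 1 (range 0 to 1 over libraries left out). Over the settings that left out a library, its adjusted p was 0.0475 to 0.628. Members at an unadjusted p of at most 0.05 were 6 as reported, 8 after median centring, 5 after quantile normalization, 6 without mitochondrially encoded genes, 4 with array quality weights, 3 without a filter, 3 without immunoglobulin genes and 2 (without WT replicate 6 or KO replicate 6) to 8 (without WT replicate 1) with a library left out, with 3 without WT replicate 5 or KO replicate 3 or 5. The share of all genes tested that were higher at that p moved too, from 6.83% to 10.3% after median centring or quantile normalization, 11.1% with array quality weights, 8.58% without mitochondrially encoded genes, 4.97% without immunoglobulin genes and 3.87% without a filter. With a library left out this share was 3.19% (without WT replicate 5) to 17.9% (without WT replicate 1). The log2 difference of the summed surfactant protein share was 0.26 (without WT replicate 5) to 0.74 (without WT replicate 3), with an exact permutation p of 0.0433 to 0.247. The causes were not tested. Median centring moved the median of all genes from 0.10 to -0.01. The median of the 10 genes lies 0.75 above it, which centring cannot alter.

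With the replicate block, 45 genes and 0 members were called and 3 members had an unadjusted p of at most 0.05. At that p 5.19% of all genes tested were higher. Deviations of same-numbered lungs correlated at -0.292 to 0.0458 and no lung correlated best with its own number, so that the numbers do not pair the lungs. TPM keep no depth, so no limit of detection can be given.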
